A study of Mus musculus with 24 samples.

Results

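Macrophages labelled as tumour-associated (TAM), taken from mice after sepsis, were compared with unpolarized macrophages (M0) grown from the bone marrow of mice after sepsis. The comparison rested on 8 of the 24 arrays of the series, chosen by their labels, with 4 arrays in each group. The TAM came from C57BL/6 males aged 10 weeks and were isolated 14 days after sepsis was induced, on a Percoll gradient (70/30) with 1 hour of adhesion. The M0 came from adherent marrow progenitors of the same strain, sex, age and time after sepsis, and had grown for 7 days in RPMI with 20% L929 supernatant and 10% FBS. No M0 sample had seen a tumour, and no TAM sample had been cultured beyond the adhesion step, so tumour, tissue of origin and culture cannot be told apart. The labels do not name the tumour line. The other groups of the series were TAM and M0 of naive mice and marrow cultures polarized as M1 and M2. Their labels too give an age of 10 weeks. Naive M0, M1 and M2 had the same 7 days of culture with 20% L929 supernatant and 10% FBS. For polarization the labels give day 3, with 50 ng/mL IFN-gamma and 10 ng/mL LPS for M1 and 20 ng/mL IL-10 for M2.

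Macrophages are phagocytes of the innate immune system. In tumours they derive largely from blood monocytes and take up a mixture of inflammatory, repair and immunosuppressive programmes. L929 supernatant supplies the growth factor CSF1, on which the growth and survival of marrow-derived macrophages depend. Survivors of sepsis can show lasting changes in their myeloid cells, and the series set out to look at such cells after sepsis.

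Each array was an Agilent one-colour array read as spot intensity, and each value below is a log2 intensity relative to the 75th percentile of its own array, so that 0 stands for that percentile. Per-array values are listed for replicates 1 to 4 of each group. A difference is TAM minus M0 in log2 units, with the standard error of the limma fit and its adjusted p, n = 4 arrays per group. A signed value that follows "at" is such a difference too. Levels of different genes come from different probes and are not compared. Of the probes, 58.4% to 66.0% were well above background on the TAM arrays and 57.0% to 65.5% on the M0 arrays. The design text describes 3 TAM experiments of 4 mice in each group, and from the resulting 12 samples those with the best absorbance ratios, 4 in number, went onto arrays. For marrow it describes 2 experiments of 3 samples in each group, again with 4 chosen. The experiment behind each array was not given, so the p-values measure the spread between selected samples.

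By correlation, 1 array in each group stood apart. TAM replicate 2 correlated with the other TAM arrays at 0.932 to 0.945, against 0.980 to 0.988 among those 3, and M0 replicate 3 correlated with the other M0 arrays at 0.895 to 0.939. Pairs across the groups lay between 0.768 and 0.872. The arrays lay on 3 slides, and slides 2 and 3 held both groups. Slide 1 held TAM replicates 1 and 4 and no post-sepsis M0 array, so slide and group were partly confounded. M0 replicates 1 and 3 lay on slide 2, with 75th percentile intensities of 309 and 236. M0 replicates 2 and 4 lay on slide 3, with 480 and 463. The M0 arrays thus also split by slide and signal, and the part of either in their spread was not tested. The within-slide values below rest on 1 TAM array each, replicate 3 on slide 2 and replicate 2 on slide 3, against 2 M0 arrays each.

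The difference between the groups was broad: of 17006 genes tested, 5687 (33.4%) passed an adjusted p of 0.05, 2872 (16.9%) higher and 2815 (16.6%) lower in TAM. At an unadjusted p below 0.05 there were 7786 genes. The median difference over all genes was -0.18. Arrays of the groups did not overlap for 6597 genes (38.8%). Among the called genes, 436 were higher and 98 lower by more than 32-fold. Of the 5687, 5657 had the same sign within both slides. The within-slide values reuse arrays that made the calls, so this count is a description and no separate support. The share over all genes tested was not computed. Without TAM replicate 2 and M0 replicate 3 together, 5900 genes were called, 2663 higher and 3237 lower. A further 12948 probes without a gene symbol gave 731 higher and 1324 lower.

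The label was first set against its markers. Of 18 macrophage identity genes, 17 were well above background on at least 3 TAM arrays. None was higher and 17 were lower in TAM than in M0, with a median difference of -4.63, -4.29 within slide 2 and -5.70 within slide 3. The summed linear level of the list, in units of the 75th percentile, was 83.3 to 208 over the TAM arrays and 1295 to 1933 over the M0 arrays. Genes of pigment cells, stroma and red cells went the other way by larger median amounts. Most genes of vessels did so by a smaller one, as the next paragraphs show. The samples are therefore called the TAM arrays after their label only, and from which cells each transcript came was not tested. In bulk RNA, fewer cells of a type and less RNA per cell cannot be told apart.

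The pigment cell genes Dct and Tyrp1 had the 2 largest bounds of all genes that were above background in TAM and not in M0. Melanin is made in melanosomes by the enzymes tyrosinase (Tyr), Tyrp1 and Dct on a fibre of Pmel, and the factor Mitf drives their genes through an element known as the M-box, which contains the letters TCATGTG. The 250 bases before the start of 3 of these genes are shown because these promoters carry that element (RefSeq, GRCm38.p6, 5′ to 3′ on the gene's strand, with each TCATGTG on either strand in capitals).
Tyr (chr7:87493513-87493762, strand -): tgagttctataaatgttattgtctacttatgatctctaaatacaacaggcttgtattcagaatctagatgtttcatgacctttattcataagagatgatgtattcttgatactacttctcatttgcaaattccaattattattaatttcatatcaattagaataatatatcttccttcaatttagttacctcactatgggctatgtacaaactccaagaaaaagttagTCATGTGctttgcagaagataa
Tyrp1 (chr4:80833963-80834212, strand +): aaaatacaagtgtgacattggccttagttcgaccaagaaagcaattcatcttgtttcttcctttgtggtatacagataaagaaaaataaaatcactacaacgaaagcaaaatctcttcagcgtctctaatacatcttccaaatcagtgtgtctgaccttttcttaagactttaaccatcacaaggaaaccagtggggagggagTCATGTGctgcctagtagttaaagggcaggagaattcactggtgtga
Dct (chr14:118052247-118052496, strand -): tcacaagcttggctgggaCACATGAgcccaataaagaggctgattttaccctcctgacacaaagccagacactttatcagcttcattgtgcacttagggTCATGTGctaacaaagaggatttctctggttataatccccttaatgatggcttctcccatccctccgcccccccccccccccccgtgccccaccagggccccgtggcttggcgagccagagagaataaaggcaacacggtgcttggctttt

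These letters stood 22 bases before the start of Tyr and 47 bases before that of Tyrp1, and Dct held them at 232 and 151 bases, the first on the opposite strand. Of the 14 pigment cell genes, 8 had a promoter in the table, and 6 of them (75%) held TCATGTG on either strand. That was 3.72% over all 27025 genes with a promoter, and 0 of 12 macrophage identity genes. It was 1 of 12 motifs counted and was picked with these shares in view, so the match is a description.

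Dct, a tautomerase of melanin synthesis, measured 9.31, 9.69, 9.14 and 9.44 in the TAM arrays, against -5.53, -6.43, -4.06 and -6.38 in the M0 arrays. It was well above background on every TAM array and on no M0 array, and was at least 12078-fold higher in TAM (difference 14.99 ± 0.50, adjusted p = 2.96e-07). Its probe lies at chr14:118412029-118412088 in mm9. Tyrp1 measured 8.84, 8.83, 8.32 and 8.63 in the TAM arrays, against -5.75, -6.75, -5.64 and -6.25 in the M0 arrays, and was at least 7232-fold higher (difference 14.75 ± 0.30, adjusted p = 5.55e-08). For both genes each TAM array lay far above each M0 array. Mlana, a melanosome protein, measured 8.36, 8.15, 8.44 and 8.07 in the TAM arrays, against -2.68, -3.98, -2.67 and -4.48 in the M0 arrays (difference 11.71 ± 0.43, adjusted p = 4.20e-07). Pmel measured 8.65, 8.86, 8.23 and 8.54 in the TAM arrays, against -2.71, -3.15, -2.86 and -3.63 in the M0 arrays (difference 11.66 ± 0.28, adjusted p = 8.31e-08).

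Of the 14 members, 13 were higher and none lower, with a median of 8.77, or 6.996 with the 5 members that were above background on no M0 array set at their bounds. The exception was Trpm1, a cation channel, at -1.03 ± 0.37 (adjusted p = 0.0731), which was above background on all M0 arrays on its brightest probe, although 3 of its 4 probes were higher in TAM. Tyr differed by 4.33 ± 0.53 and Mitf, which macrophages express too, by 3.71 ± 0.29. Sox10 and Pax3, factors of the neural crest, differed by 6.29 ± 0.45 and 6.42 ± 0.36. The receptor Mc1r was above background on no M0 array and at least 534-fold higher in TAM. The summed level of the list was 1790 to 2327 over the TAM arrays and 11.5 to 14.4 over the M0 arrays.

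**Figure D1:**
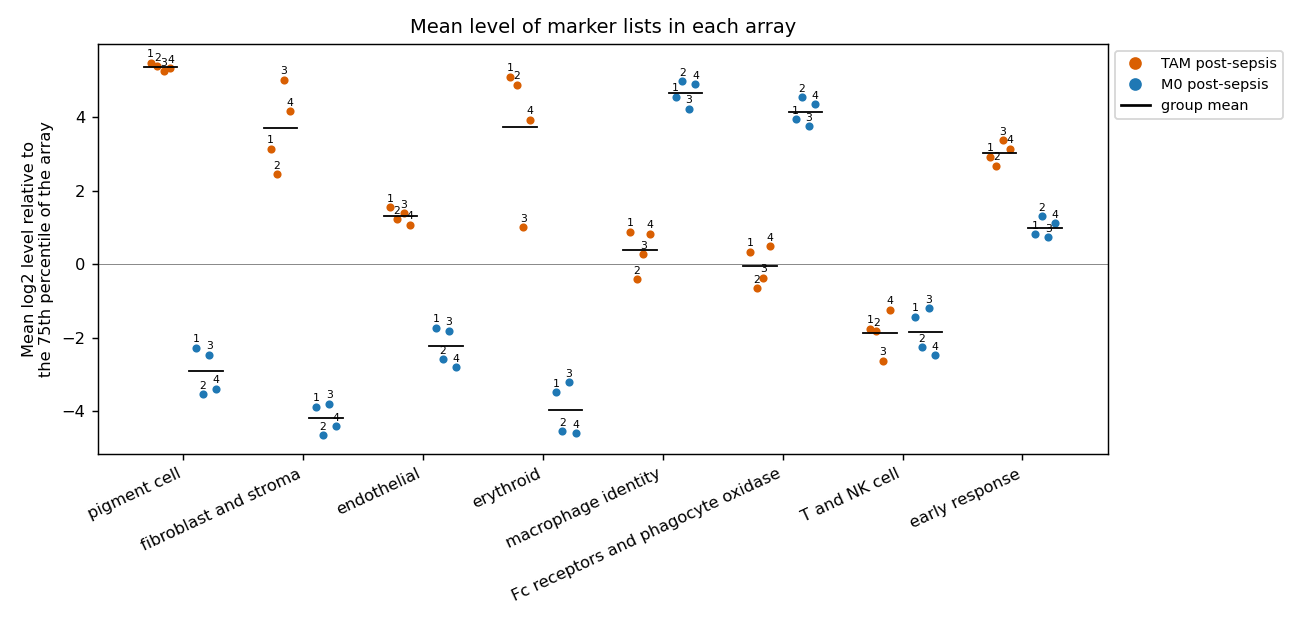
Mean log2 level of each marker list (relative to the array's 75th percentile, over the members tested) in each of the 4 TAM arrays (left, orange) and the 4 M0 arrays (right, blue), with numbers giving the replicate and a bar the group mean. Pigment cell genes sat between 5.25 and 5.49 in TAM, and the macrophage list between -0.39 and 0.89.

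Fibroblast and stroma genes were all higher in TAM, 13 of 13, with a median of 8.47 (7.06 with 6 members at their bounds, and 9.20 within slide 2 and 7.36 within slide 3). Col3a1, a fibrillar collagen, measured 6.13, 4.95, 8.02 and 7.53 in the TAM arrays, against -3.54, -4.35, -3.33 and -3.71 in the M0 arrays (difference 10.39 ± 0.63, adjusted p = 5.29e-06). Dcn, the matrix proteoglycan decorin, measured 5.70, 4.82, 7.23 and 6.60 in the TAM arrays, against -2.43, -4.46, -2.89 and -4.13 in the M0 arrays (difference 9.57 ± 0.62, adjusted p = 7.51e-06). Lum, a related proteoglycan, was above background on no M0 array and at least 126-fold higher, and Pdgfrb, a receptor of pericytes and fibroblasts, at least 34.9-fold. Unlike the pigment genes, these spread over the TAM arrays. The mean level of the list was 3.15, 2.45, 5.03 and 4.17 in the TAM arrays, against -3.87, -4.64, -3.78 and -4.40 in the M0 arrays, highest in replicate 3 and lowest in replicate 2.

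Endothelial genes were higher for 9 of 12, with a median of 3.81 (3.21 with 4 members at their bounds). Cdh5, the adhesion molecule of endothelial junctions, measured 1.51, 1.09, 1.19 and 0.64 in the TAM arrays, against -3.90, -3.74, -5.72 and -4.18 in the M0 arrays (difference 5.50 ± 0.44, adjusted p = 2.56e-05), with 1 M0 array above background. Esam and Tie1, an adhesion protein and a receptor of vessels, were at least 30.4-fold and at least 8.28-fold higher. Pecam1, Kdr and Vwf did not pass the test, at 0.03 ± 0.39, -0.03 ± 0.45 and -0.69 ± 0.28.

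Globin transcripts were high in TAM replicates 1, 2 and 4 and lower in replicate 3. Hba-a1, an alpha globin, measured 9.02, 8.74, 3.94 and 7.73 in the TAM arrays, against -1.999, -3.19, -1.84 and -3.17 in the M0 arrays (difference 9.91 ± 1.02, adjusted p = 1.06e-04), so replicate 3 stood apart yet above every M0 array. Hbb-bt, a beta globin, measured 8.52, 8.58, 3.56 and 7.19 in the TAM arrays, against -3.95, -5.997, -3.21 and -6.30 in the M0 arrays (difference 11.83 ± 1.16, adjusted p = 7.83e-05), with 1 M0 array above background. Of 8 erythroid genes tested, 7 were higher, and the exception was Slc4a1 at 0.25 ± 0.52. Globin genes have near-identical copies, so their probes cannot be assigned to one copy with certainty. Alas2, the erythroid enzyme of heme synthesis, has none and was at least 52.1-fold higher. The array with the lowest globins was the one with the highest stroma genes.

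Few markers of lymphoid cells passed the test. Of 19 T and NK cell genes, 2 were higher and 3 lower (median 0.17), and none was higher without TAM replicate 1. The lower count was 2 in each of the 8 fits that left out an array. Cd3e and Cd3d, chains of the T cell receptor complex, were at 0.07 ± 0.40 and 0.17 ± 0.68. Cd28, the co-stimulatory receptor of T cells, was an exception on the other side: it measured -2.51, -2.83, -3.43 and -2.13 in the TAM arrays, against 3.82, 4.51, 3.85 and 4.16 in the M0 arrays (difference -6.81 ± 0.33, adjusted p = 1.64e-06), high in the marrow cultures. Among 11 B cell genes 1 was higher and 1 lower (median -0.61). The higher one was Ebf1 at 4.23 ± 0.40, with 1 M0 array above background, a factor that fat and stroma precursors use too. The lower one was Bank1, at -2.46 ± 0.74 (adjusted p = 0.0377), whose call was lost in 4 of 8 fits that left out an array, without TAM replicate 1 or M0 replicate 1, 2 or 4 (adjusted p = 0.0576 to 0.0843).

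Mast cell genes were higher for 5 of 7 tested (median 2.17), among them the histamine enzyme Hdc at 4.61 ± 0.77, with 2 M0 arrays above background, and the chymase Mcpt4 at 3.27 ± 0.66. Fcer1a and Ms4a2, chains of the IgE receptor, did not pass the signal filter. Neutrophil granule genes were lower for 7 of 16 (median -1.61), among them Mpo, myeloperoxidase, at -3.40 ± 0.31 and Ngp at -3.51 ± 0.65, the last with 2 TAM arrays above background. The 1 higher gene, Ly6g, a surface antigen of neutrophils, was at 3.02 ± 0.88 (adjusted p = 0.0326), with 2 M0 arrays above background and a value of -0.24 within slide 3. Its call was lost without TAM replicate 1, 3 or 4 or M0 replicate 1, 2 or 3 (adjusted p = 0.0529 to 0.0881). Monocyte genes gave 3 higher and 3 lower of 10 (median 0.37), and Fn1, fibronectin, which stroma makes too, led with 6.69 ± 0.58. The higher count was 1 without TAM replicate 1, 3 or 4 or M0 replicate 1 or 2. Of 14 dendritic cell genes 10 were tested, and 4 were higher and 1 lower, at -1.31 (median 0.81). The higher count was 3 without TAM replicate 1 or 4 or M0 replicate 1 or 3. Ccr7, the homing receptor of mature dendritic cells, measured 1.82, 2.18, 0.86 and 3.01 in the TAM arrays, against -0.71, -1.15, -1.39 and -0.98 in the M0 arrays (difference 3.02 ± 0.43, adjusted p = 7.81e-04). Fscn1, an actin bundling protein that many other cells make, differed by 4.35 ± 0.36. Keratinocyte genes gave 1 higher of 7, Cdh1 (at least 1.8-fold), and 2 of 4 fat and muscle genes were higher, Acta1 at 2.29 ± 0.33 and Des, at least 1.48-fold. Both bounds were near 1, and with another background correction neither Cdh1 nor Des passed the test (adjusted p = 0.524 and 0.836).

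Within the macrophage list the size of the difference ran over a wide range. Trem2, a lipid-sensing receptor of tissue and tumour macrophages, measured 2.32, 0.44, 1.26 and 1.86 in the TAM arrays, against 8.16, 8.38, 8.15 and 8.20 in the M0 arrays (difference -6.75 ± 0.39, adjusted p = 3.99e-06). Lyz2, lysozyme, measured 0.91, -1.97, 0.26 and 1.09 in the TAM arrays, against 6.09, 6.94, 5.95 and 7.27 in the M0 arrays (difference -6.49 ± 0.66, adjusted p = 9.91e-05, -5.76 within slide 2 and -9.07 within slide 3). In both genes TAM replicate 2 was the lowest array, and the groups did not overlap. The promoter of Lyz2 is shown because it holds AGGAAGT, letters bound by the myeloid factor PU.1 (RefSeq, GRCm38.p6, 5′ to 3′, with the match, here on the opposite strand, in capitals).
Lyz2 (chr10:117282273-117282522, strand -): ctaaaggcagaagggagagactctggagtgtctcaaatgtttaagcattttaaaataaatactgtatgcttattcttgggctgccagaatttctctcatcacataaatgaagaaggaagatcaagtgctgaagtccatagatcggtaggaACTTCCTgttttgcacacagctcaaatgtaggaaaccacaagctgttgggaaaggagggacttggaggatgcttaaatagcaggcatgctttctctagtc

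AGGAAGT occurred on either strand in the promoters of 3 of 12 macrophage identity genes (25%), against 8.8% of all genes and 0 of 8 pigment cell genes, again as a description. The shorter form GGAAGT was held by the same share of these genes (25%), against 22.2% of all genes, and the longer form GAGGAAGT by 0 of 12, against 2.79%. Spi1, the gene of PU.1 itself, was above background on 1 TAM array and differed at -4.67 ± 0.43. Adgre1, the surface antigen F4/80, measured 0.54, -1.71, 0.03 and 0.05 in the TAM arrays, against 5.35, 5.86, 5.002 and 5.63 in the M0 arrays (difference -5.74 ± 0.47, adjusted p = 2.90e-05). Csf1r, the receptor of CSF1, measured 3.36, 1.53, 3.17 and 3.56 in the TAM arrays, against 7.48, 7.94, 7.27 and 7.78 in the M0 arrays (difference -4.71 ± 0.45, adjusted p = 6.35e-05), and 2 of its 3 probes were lower. Cd68, a lysosomal glycoprotein, differed at -5.42 ± 0.33, and the smallest called differences were those of Cd14, the co-receptor of lipopolysaccharide, at -2.74 ± 0.62 and of Mertk, a receptor for apoptotic cells, at -2.58 ± 0.36.

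Itgam, the integrin CD11b, was the member that did not pass. Its brightest probe measured 4.87, 7.53, 5.48 and 4.31 in the TAM arrays, against 6.87, 5.24, 3.07 and 6.17 in the M0 arrays (difference 0.21 ± 0.91, adjusted p = 0.876), with groups that overlapped and TAM replicate 2 as the highest array. Its other 2 probes were lower in TAM, at -3.69 ± 0.37 (adjusted p = 9.71e-05) and -1.60 ± 0.28 (adjusted p = 0.0027), and the mean of the 3 was at -1.69 (adjusted p = 0.00691), so the direction of Itgam depended on the probe.

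Transcription factors of macrophages moved both ways, 7 higher and 10 lower of 21 (median -0.83). Lower in TAM were Irf8 at -3.56 ± 0.35 and Maf at -3.72 ± 0.33, which set macrophage fate, and Pparg at -2.77 ± 0.28 and Nr1h3 at -2.02 ± 0.28, nuclear receptors of lipid metabolism. Higher were Id3, an inhibitor of helix-loop-helix factors, at 4.30 ± 0.44, Bhlhe40 at 2.90 ± 0.28 and Klf4 at 1.93 ± 0.29. Irf4, a factor of alternative activation, was higher by 1.30 ± 0.37 (adjusted p = 0.0298), but lost its call in 4 of 8 fits that left out an array, without TAM replicate 1 or 4 or M0 replicate 1 or 3 (adjusted p = 0.0667 to 0.0808).

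Products ascribed to tumour macrophages divided, 5 higher and 9 lower of 21 tested (median -0.71). Arg1, the arginase that depletes arginine around T cells, measured 1.23, -1.81, 0.33 and 1.61 in the TAM arrays, against -4.59, -4.88, -4.64 and -4.39 in the M0 arrays. It was above background on no M0 array and was at least 22.7-fold higher in TAM (difference 4.96 ± 0.66, adjusted p = 5.10e-04, 4.94 within slide 2 and 2.82 within slide 3). Chil3, a chitinase-like secreted protein, measured 5.21, 4.32, 5.14 and 5.30 in the TAM arrays, against 1.16, 2.07, 1.20 and 1.76 in the M0 arrays (difference 3.45 ± 0.33, adjusted p = 6.35e-05). In both genes the groups did not overlap and TAM replicate 2 was the lowest of the TAM arrays.

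Spp1, the matrix cytokine osteopontin, went the other way and measured 1.65, -1.09, 2.38 and 2.11 in the TAM arrays, against 5.91, 6.77, 5.79 and 7.23 in the M0 arrays (difference -5.16 ± 0.74, adjusted p = 7.87e-04). Mrc1, the mannose receptor CD206, measured 1.73, -0.44, 0.68 and 1.17 in the TAM arrays, against 5.96, 6.57, 5.81 and 6.34 in the M0 arrays (difference -5.39 ± 0.45, adjusted p = 2.99e-05). Apoe, a lipid carrier, was lower, at -1.0004 ± 0.22 (adjusted p = 0.0102), and the elastase Mmp12 at -4.13 ± 0.47. Tgfb1, a cytokine that restrains immunity, measured -1.05, -1.05, -0.44 and -1.25 in the TAM arrays, against 1.80, 2.69, 1.46 and 2.41 in the M0 arrays (difference -3.04 ± 0.34, adjusted p = 1.64e-04). Every TAM array lay below every M0 array for these 5 genes.

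Several widely used tumour macrophage markers did not differ beyond their spread. Vegfa, the vascular growth factor, measured 1.79, 2.58, 2.83 and 2.27 in the TAM arrays, against 2.05, 2.77, 1.69 and 2.53 in the M0 arrays (difference 0.11 ± 0.33, adjusted p = 0.828). Its second probe, with a lower signal, was higher in TAM by 1.22 ± 0.25 (adjusted p = 0.00644). Cd274, the checkpoint ligand PD-L1, was at -0.51 ± 0.40 (adjusted p = 0.358). Il10, an anti-inflammatory cytokine, was at 0.95 ± 0.44 (adjusted p = 0.14), and passed without TAM replicate 2 (adjusted p = 0.0412). Cxcr4, the receptor of Cxcl12, was at -0.85 ± 0.35 (adjusted p = 0.106).

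**Figure D2:**
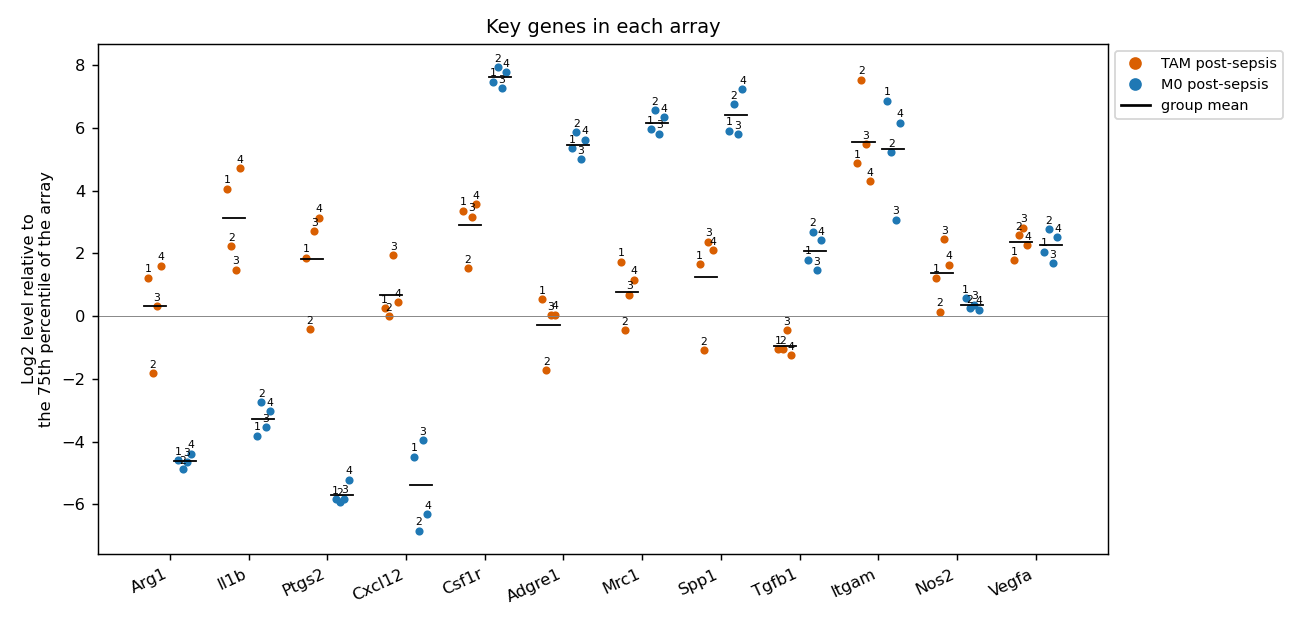
Log2 level (relative to the array's 75th percentile) of 12 of the 20 key genes in each of the 4 TAM arrays (left, orange) and 4 M0 arrays (right, blue), with the replicate number beside each point and a bar at the group mean. Arg1, Il1b, Ptgs2 and Cxcl12 were higher in every TAM array than in any M0 array, Csf1r, Adgre1, Mrc1, Spp1 and Tgfb1 lower, and Itgam, Nos2 and Vegfa overlapped.

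Genes of classical (M1) activation were higher for 6 and lower for 3 of 18 tested (median 1.04). Il6, the acute-phase cytokine, measured 3.21, 0.95, 3.89 and 4.70 in the TAM arrays, against -5.95, -6.88, -5.79 and -6.34 in the M0 arrays. It was above background on no M0 array and was at least 164-fold higher (difference 9.43 ± 0.71, adjusted p = 1.75e-05). Il1b, the inflammasome cytokine, measured 4.07, 2.24, 1.49 and 4.73 in the TAM arrays, against -3.81, -2.74, -3.53 and -3.02 in the M0 arrays (difference 6.41 ± 0.68, adjusted p = 1.28e-04). Ptgs2, the inducible cyclooxygenase, measured 1.86, -0.42, 2.71 and 3.14 in the TAM arrays, against -5.84, -5.92, -5.82 and -5.21 in the M0 arrays and was at least 63.6-fold higher (difference 7.52 ± 0.69, adjusted p = 5.24e-05). All 4 TAM arrays were above all M0 arrays in each of these genes.

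Other members did not follow. Tnf measured 2.70, 0.14, 1.22 and 3.12 in the TAM arrays, against 1.30, 2.11, 0.95 and 1.85 in the M0 arrays (difference 0.24 ± 0.63, adjusted p = 0.794), and its groups overlapped. Nos2, the inducible nitric oxide synthase, measured 1.23, 0.15, 2.46 and 1.65 in the TAM arrays, against 0.58, 0.26, 0.36 and 0.21 in the M0 arrays (difference 1.02 ± 0.44, adjusted p = 0.121), and passed only without TAM replicate 2 among the fits that left out 1 array (adjusted p = 0.0143). Irf5, a factor of inflammatory macrophages, was lower, at -4.32 ± 0.41, as were the co-stimulators Cd40 (-1.89 ± 0.32) and Cd86 (-1.63 ± 0.36). Socs3, a feedback inhibitor of cytokine signalling, was higher by 3.65 ± 0.32.

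Of 17 genes of alternative activation, 5 were higher and 4 lower (median 0.01). Beside Arg1 and Chil3, Socs2, an inhibitor of cytokine signals, was higher by 2.46 ± 0.34, on 3 of its 4 probes. Retnla, a secreted product induced by IL-4, measured -1.35, -2.06, -2.11 and -1.40 in the TAM arrays, against -5.83, -6.81, -2.16 and -6.31 in the M0 arrays (difference 3.55 ± 0.90, adjusted p = 0.0184), with 1 M0 array above background. That array, M0 replicate 3, was close to the TAM arrays, and the call was lost without TAM replicate 1 or M0 replicate 1 (adjusted p = 0.0505 to 0.0535). Clec10a, a galactose lectin, was lower, at -2.91 ± 0.43. The count of higher genes was 3 without M0 replicate 1.

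Cytokine genes were higher for 6 and lower for 6 of 21. Il33, an alarmin of stromal cells, measured 0.61, -1.36, 3.60 and 2.13 in the TAM arrays, against -6.12, -7.05, -5.98 and -6.49 in the M0 arrays and was at least 42.5-fold higher (difference 7.65 ± 0.91, adjusted p = 2.51e-04). Il1r1, the signalling receptor of IL-1, measured -0.49, -2.19, 1.99 and 0.89 in the TAM arrays, against -6.01, -6.98, -5.88 and -6.41 in the M0 arrays and was at least 18.6-fold higher. In both genes the TAM arrays ran in the order of replicates 3, 4, 1 and 2, the same as the stroma list. That order held in 14.3% of the genes higher in TAM, against 8.56% of all genes tested. Lower in TAM were Il10ra, the IL-10 receptor, at -2.81 ± 0.47 and Il18 at -1.49 ± 0.30. Lif, a cytokine of the IL-6 family, measured -2.43, -1.94, -1.77 and -0.93 in the TAM arrays, against 2.88, 0.02, 5.14 and 0.29 in the M0 arrays (difference -3.85 ± 1.04, adjusted p = 0.0235). Lif was far higher in M0 replicates 1 and 3, on slide 2, than in 2 and 4, on slide 3. Its call was lost without TAM replicate 1 or 3 or M0 replicate 1 (adjusted p = 0.0561 to 0.0675), and the count of lower genes lay between 3 and 5 over the 8 fits that left out 1 array each, with 3 without any 1 of those arrays.

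Chemokines were higher for 14 and lower for 8 of 26 (median 1.57, 1.26 within slide 2 and 1.78 within slide 3). Cxcl12, which holds CXCR4-bearing cells in tissues, measured 0.25, -0.0004, 1.95 and 0.44 in the TAM arrays, against -4.48, -6.84, -3.95 and -6.31 in the M0 arrays and was at least 28.4-fold higher (difference 6.06 ± 0.70, adjusted p = 2.14e-04). Cxcl10, which draws in activated T cells, measured 4.90, 4.04, 5.51 and 4.77 in the TAM arrays, against -0.03, 0.54, -0.38 and 0.77 in the M0 arrays (difference 4.58 ± 0.38, adjusted p = 2.98e-05). Ccl5 and Ccl8, attractants of T cells and monocytes, were higher by 3.09 ± 0.31 and 4.19 ± 0.55. Cxcl3, an attractant of neutrophils, was at least 18.7-fold higher.

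Chemokines that the marrow cultures made at higher levels were Ccl9 (difference -4.98 ± 0.38), Pf4, the platelet factor, at -4.01 ± 0.41, Ccl12 at -3.45 ± 0.49 and Ccl6 at -3.06 ± 0.44. Ccl2, the main attractant of monocytes, measured 5.30, 2.88, 6.20 and 6.10 in the TAM arrays, against 7.05, 7.70, 6.83 and 7.73 in the M0 arrays (difference -2.21 ± 0.69, adjusted p = 0.0423). Its groups did not overlap, but TAM replicate 2 lay well below the other TAM arrays, and the call was lost without TAM replicate 1 or any 1 of the M0 replicates (adjusted p = 0.0552 to 0.0897). The count of lower chemokines lay between 4 and 8 over the fits that left out 1 array, and was 4 without any 1 of the M0 replicates. Among 12 receptors 2 were higher and 5 lower. Ackr3, a scavenging receptor of Cxcl12, measured 1.69, -0.98, 3.36 and 3.27 in the TAM arrays, against -5.92, -6.87, -5.74 and -6.36 in the M0 arrays and was at least 64.1-fold higher, with the TAM arrays spread over more than 4 log2 units. Ccr2, the receptor of Ccl2, was lower, at -1.83 ± 0.37.

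The 2 pathways of antigen presentation differed in their counts. Of 15 class I genes, 13 were lower and none higher (median -2.13, -1.35 within slide 2 and -2.66 within slide 3). Psmb8, a subunit of the immunoproteasome, measured 0.45, -0.87, 0.75 and 0.51 in the TAM arrays, against 3.47, 4.28, 3.54 and 4.06 in the M0 arrays (difference -3.63 ± 0.39, adjusted p = 1.45e-04). H2-K1, H2-D1 and B2m, chains of the class I molecule, were lower, at -2.13 ± 0.28, -2.30 ± 0.30 and -1.54 ± 0.31, although class I heavy chains have near-identical copies. Of 10 class II genes 2 were lower and none higher (median -0.10). H2-Ab1, a class II chain, measured 5.30, 4.50, 4.82 and 5.73 in the TAM arrays, against 4.59, 5.36, 4.75 and 4.77 in the M0 arrays (difference 0.22 ± 0.33, adjusted p = 0.635), and its groups overlapped. Cd74, the class II chaperone, was at -0.09 ± 0.35, beside a median of -4.63 for the macrophage list. H2-DMb1, which loads peptides, was lower, at -2.33 ± 0.31. H2-DMa, its partner, was lower, at -1.64 ± 0.50 (adjusted p = 0.0387), a call lost in 5 of 8 fits that left out an array, without TAM replicate 2 or 3 or M0 replicate 1, 2 or 4 (adjusted p = 0.0603 to 0.103). Whether the difference between the 2 lists exceeded their spread was not tested.

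Of 27 interferon response genes, 11 were lower, 2 higher and the others did not pass (median -0.93, -0.12 within slide 2 and -1.83 within slide 3). Trim30a, a restriction factor of the TRIM family, measured -1.95, -2.33, -1.88 and -1.67 in the TAM arrays, against 0.78, 1.48, 0.79 and 1.06 in the M0 arrays (difference -2.98 ± 0.26, adjusted p = 4.24e-05). Stat2, which carries the interferon signal, was lower, at -1.93 ± 0.28, and the RNA sensor Oas1a, which has close copies, at -2.03 ± 0.24. Oasl1, a repressor of interferon output in mice, went the other way and measured 3.35, 1.99, 3.43 and 3.55 in the TAM arrays, against -0.56, -0.01, -0.73 and 0.09 in the M0 arrays (difference 3.38 ± 0.39, adjusted p = 2.22e-04). The other higher gene, Ifit1, was at 1.27 ± 0.35 (adjusted p = 0.0252), a call lost in 5 of 8 fits that left out an array, without TAM replicate 1, 3 or 4 or M0 replicate 1 or 3 (adjusted p = 0.0547 to 0.0799). Without TAM replicate 2, 4 genes of the list were higher, and without M0 replicate 4 there were 3. The count of lower genes lay between 8 and 12 over the fits that left out an array, with 8 without TAM replicate 1 or M0 replicate 2.

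Complement divided by component, 8 higher and 8 lower of 18. The proteases and their substrates were higher: C2 measured 5.06, 5.19, 5.20 and 4.76 in the TAM arrays, against -1.21, -2.76, -0.87 and -3.16 in the M0 arrays (difference 7.05 ± 0.51, adjusted p = 1.33e-05), C4b was higher by 5.86 ± 0.54, and C1s1 was at least 54.5-fold higher. Serping1, which inhibits C1, was higher by 5.87 ± 0.80. The recognition chains and receptors made by macrophages were lower: C1qc measured 2.65, 0.32, 1.69 and 1.84 in the TAM arrays, against 6.96, 7.26, 6.77 and 6.91 in the M0 arrays (difference -5.35 ± 0.45, adjusted p = 3.11e-05), properdin (Cfp) was lower, at -5.41 ± 0.33, and the anaphylatoxin receptor C5ar1 at -6.07 ± 0.49. In these 7 genes the groups did not overlap, and all 8 fits that left out an array kept 8 higher and 8 lower.

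Among receptors of phagocytosis and microbial sensing, most called genes were lower. All 11 genes of Fc receptors and the phagocyte oxidase were lower (median -4.39). Fcer1g, the signalling chain of Fc receptors, measured 3.01, 1.42, 2.19 and 2.93 in the TAM arrays, against 8.15, 8.34, 7.77 and 8.11 in the M0 arrays (difference -5.71 ± 0.37, adjusted p = 8.11e-06). Ncf1, a cytosolic oxidase subunit, was lower, at -4.62 ± 0.37. Toll-like receptors and partners were lower for 12 of 15 (median -2.18), with Tlr13, a sensor of bacterial ribosomal RNA, at -4.95 ± 0.33, and Tlr1 at -4.17 ± 0.34. Tlr9, the receptor of bacterial DNA, did not pass at 0.22 ± 0.27. C-type lectins were lower for 10 of 16, led by Mrc1 and by Clec4d at -4.83 ± 0.50, and higher for 1, Cd209f, at 1.24 ± 0.38 (adjusted p = 0.0388). That call was lost without TAM replicate 1, 3 or 4 or M0 replicate 2, 3 or 4 (adjusted p = 0.0506 to 0.113).

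Of 17 uptake receptors and bridging proteins, 3 were higher and 10 lower (median -2.49). Gas6, which bridges dying cells to TAM-family kinases (Tyro3, Axl and Mertk), measured 2.52, 1.72, 2.44 and 2.50 in the TAM arrays, against 7.97, 8.18, 8.17 and 7.54 in the M0 arrays (difference -5.67 ± 0.28, adjusted p = 1.86e-06). Stab1, a scavenger receptor, was lower, at -4.96 ± 0.31. Of the kinases, Tyro3 was higher, with 3.13, 2.53, 2.28 and 2.83 in the TAM arrays, against -3.0002, -3.31, -3.94 and -3.31 in the M0 arrays (difference 6.09 ± 0.30, adjusted p = 1.78e-06), Axl did not pass at 1.44 ± 0.53 (adjusted p = 0.0764), and Mertk was lower. The second probe of Tyro3 did not pass, at -0.14 ± 0.66 (adjusted p = 0.887).

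In the Ms4a cluster of membrane proteins, Ms4a7 measured 1.58, -0.30, 0.77 and 0.74 in the TAM arrays, against 6.46, 6.84, 6.47 and 7.02 in the M0 arrays (difference -6.002 ± 0.39, adjusted p = 7.61e-06), and 5 of 10 genes of the list were lower. The 2 higher ones were not Ms4a genes but Tmem176a and Tmem176b, ion channels of antigen-presenting cells that the list also holds, at 2.76 ± 0.32 and 3.04 ± 0.25. Of 16 checkpoint and co-stimulation genes 9 were lower and none higher (median -1.37). Cd200r1, an inhibitory receptor of myeloid cells, measured -3.50, -6.02, -4.40 and -3.26 in the TAM arrays, against 2.30, 2.97, 1.76 and 3.07 in the M0 arrays (difference -6.82 ± 0.60, adjusted p = 4.14e-05), and Havcr2, TIM-3, was lower, at -3.82 ± 0.34. Sirpa, the receptor of the CD47 signal against phagocytosis, was lower, at -3.14 ± 0.26.

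**Figure D3:**
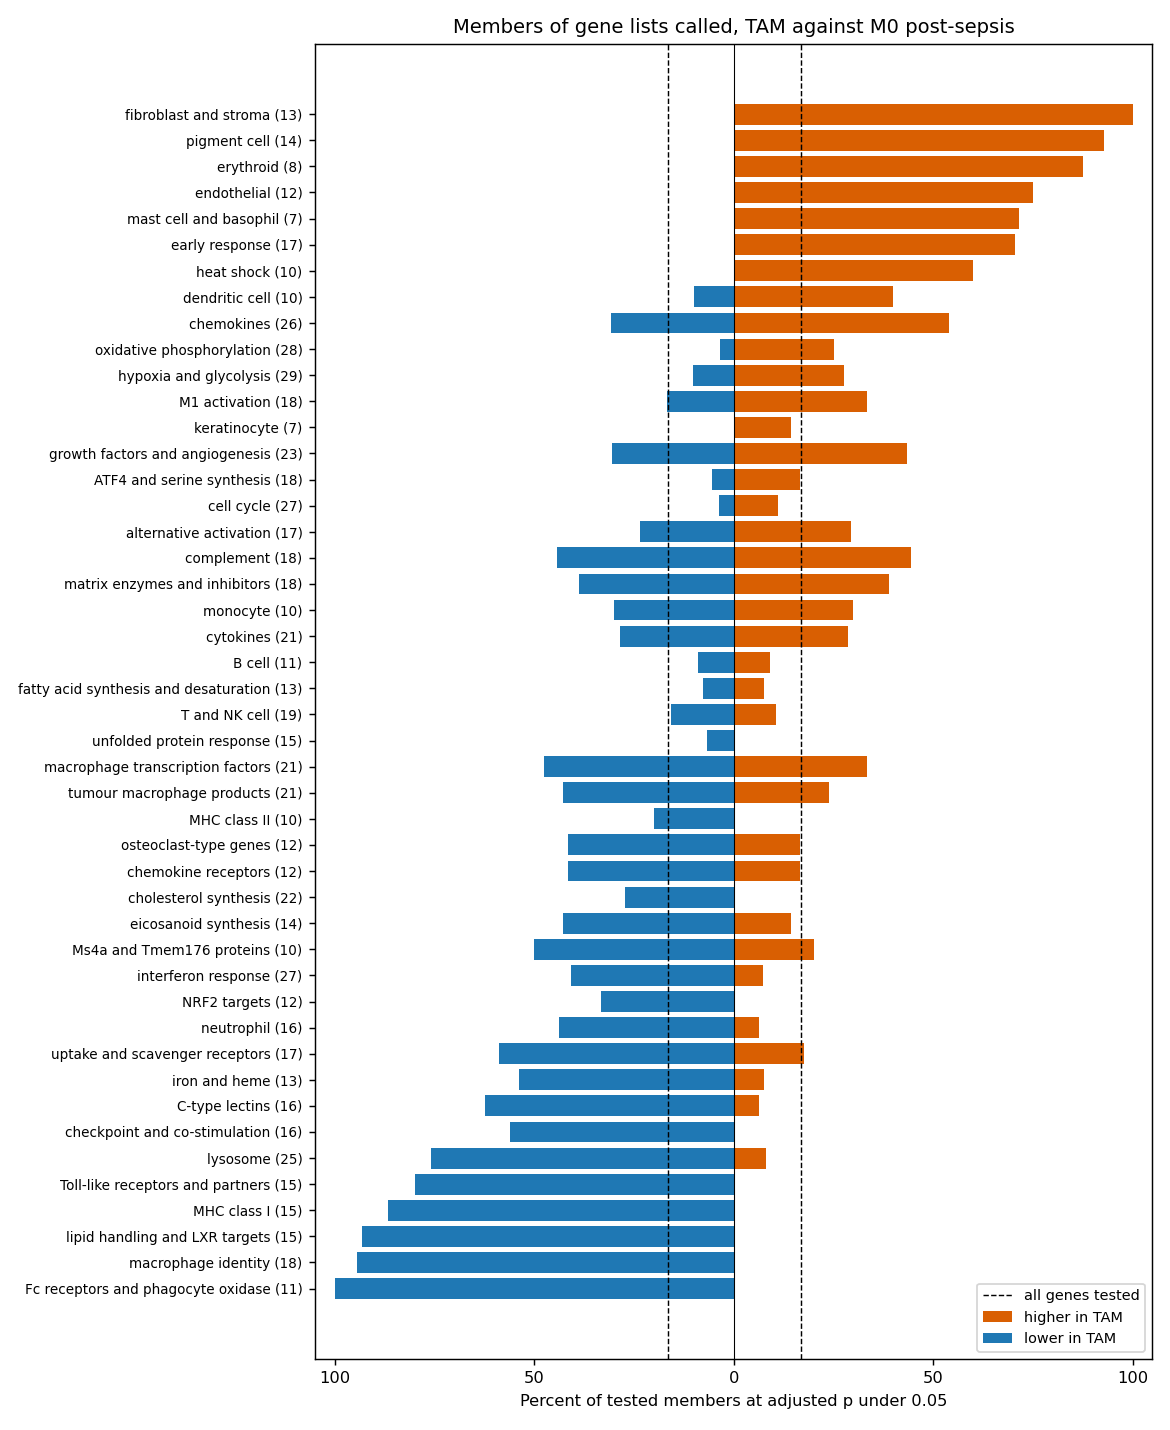
Percent of the tested members of each gene list that were higher (orange, to the right) or lower (blue, to the left) in TAM than in M0 at an adjusted p of 0.05, with the number tested after each name, for lists with at least 5 members tested. Dashed lines mark the share of all 17006 genes, 16.9% higher and 16.6% lower. Stroma, pigment and erythroid genes filled the right side and Fc receptor, lipid and identity genes the left.

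Growth factors were higher for 10 and lower for 7 of 23 (median 1.35). Vegfc, the lymphatic growth factor, measured 1.83, 1.80, 1.79 and 1.92 in the TAM arrays, against -3.48, -3.12, -4.55 and -3.27 in the M0 arrays (difference 5.44 ± 0.33, adjusted p = 5.44e-06). Angpt2 and Thbs1, regulators of vessels, were higher by 3.22 ± 0.29 and 4.62 ± 0.45, and Inhba, a subunit of activin, was at least 45.9-fold higher. Igf1, an insulin-like growth factor of repair macrophages, measured 0.56, -1.35, 0.59 and 0.31 in the TAM arrays, against 5.34, 5.73, 4.96 and 5.62 in the M0 arrays (difference -5.39 ± 0.45, adjusted p = 2.99e-05), with 4 of 5 probes lower. Both neuropilins were lower, Nrp1 at -2.95 ± 0.52 and Nrp2 at -3.68 ± 0.28.

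Matrix enzymes and inhibitors were higher for 7 and lower for 7 of 18. Mmp3, stromelysin, was at least 94.7-fold higher, the inhibitor Timp3 at least 51.1-fold, and Mmp14, a membrane-bound collagenase, was higher by 4.15 ± 0.31. Lower were Adam8, a sheddase of leukocytes, at -4.86 ± 0.48, Mmp8 at -4.57 ± 0.63, with 2 TAM arrays above background, and Mmp27 at -3.25 ± 0.52. The genes of osteoclasts gave 2 higher and 5 lower of 12, with 1 higher without TAM replicate 1 or 4 and 3 higher without TAM replicate 2. Ctsk, cathepsin K, was higher by 1.78 ± 0.34, and Tnfrsf11a, the receptor RANK, lower, at -3.23 ± 0.22.

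Genes of lipid handling were lower almost as a body, 14 of 15 (median -2.02), and all 8 fits that left out an array gave the same count. Lpl, lipoprotein lipase, measured 1.39, -0.05, 2.93 and 2.22 in the TAM arrays, against 6.48, 7.06, 6.28 and 6.98 in the M0 arrays (difference -5.08 ± 0.58, adjusted p = 2.00e-04). Abcg1, a cholesterol exporter, measured 0.33, 0.07, -0.25 and 0.53 in the TAM arrays, against 4.25, 4.59, 4.09 and 4.44 in the M0 arrays (difference -4.17 ± 0.26, adjusted p = 5.73e-06). Lysosomal genes were lower for 19 of 25 (median -1.54). The cathepsins Ctsb and Ctsd were lower, at -3.31 ± 0.23 and -2.95 ± 0.24, and Lipa, the acid lipase, at -3.64 ± 0.28. Gaa, the acid glucosidase, was higher on its brightest probe by 1.08 ± 0.27 (adjusted p = 0.0169). Its other 2 probes did not pass, at 0.71 ± 0.33 (adjusted p = 0.141) and -0.94 ± 0.53 (adjusted p = 0.212), and the call was lost without TAM replicate 1 or 4 (adjusted p = 0.0531 to 0.0548).

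In iron handling, 7 of 13 genes were lower and 1 higher, which lost its call without TAM replicate 1, 3 or 4 or M0 replicate 1 or 3. Slc40a1, the iron exporter ferroportin, measured -0.05, -1.73, -1.55 and -0.65 in the TAM arrays, against 3.999, 4.69, 3.81 and 4.18 in the M0 arrays (difference -5.17 ± 0.41, adjusted p = 2.26e-05). Slc11a1, a phagosomal metal transporter, was lower, at -4.37 ± 0.49. NRF2 targets were lower for 4 of 12, among them Srxn1 at -1.63 ± 0.29. In eicosanoid synthesis 6 of 14 genes were lower, with the leukotriene factor Alox5ap at -4.85 ± 0.45 and thromboxane synthase, Tbxas1, at -4.99 ± 0.48. Ptgs2, above, and Lta4h, at 1.39 ± 0.26, were higher.

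Lists of central metabolism and growth had medians between -0.63 and 0.48. Their shares called lay on both sides of those of all genes, 16.9% higher and 16.6% lower. Hypoxia and respiratory chain genes exceeded the share higher, and cholesterol synthesis genes the share lower. Of 27 cell cycle genes 3 were higher and 1 lower (median 0.06), shares near or below the background. Mcm2, a subunit of the replication helicase, was higher by 1.69 ± 0.28, and Mki67 was at -0.45 ± 0.27. Hypoxia and glycolysis genes were higher for 8 and lower for 3 of 29. Mgarp, a mitochondrial protein induced by hypoxia, measured 2.91, 3.97, 3.38 and 2.67 in the TAM arrays, against -0.92, -0.54, -1.38 and -0.21 in the M0 arrays (difference 3.997 ± 0.37, adjusted p = 5.54e-05). Car9, a carbonic anhydrase, was higher by 2.83 ± 0.37, and Adm, adrenomedullin, by 2.94 ± 0.44. The higher count of that list lay between 4 and 10 over the fits that left out an array, with 4 without TAM replicate 3, M0 replicate 1 or M0 replicate 3. Its lower count was 2 in each of these fits.

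Respiratory chain subunits were higher for 7 and lower for 1 of 28, led by cytochrome c, Cycs, at 1.54 ± 0.28. The higher count lay between 2 and 10 when 1 array was left out, with 2 without TAM replicate 1, TAM replicate 4 or M0 replicate 1, and the lower gene lost its call without TAM replicate 4. Cholesterol synthesis genes were lower for 6 of 22, led by Sc5d at -1.34 ± 0.27. That count lay between 1 and 7 when 1 array was left out, with 1 without TAM replicate 4. Fatty acid genes gave 1 higher and 1 lower of 13, the malic enzyme Me1 at 2.69 ± 0.27 and the elongase Elovl1 at -1.56 ± 0.26. There were 3 higher without M0 replicate 2 and 2 lower without M0 replicate 3. ATF4 targets gave 3 higher and 1 lower of 18, with Vldlr at 2.79 ± 0.53 and Atf5 at -1.77 ± 0.24. The unfolded protein response gave 1 lower of 15, Sdf2l1 at -1.25 ± 0.29.

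Immediate early genes, which respond within minutes to growth factors and to handling, were higher for 12 of 17 and lower for none (median 1.51, 2.32 within slide 2 and 1.14 within slide 3). Nr4a1, an orphan nuclear receptor, measured 5.82, 6.22, 5.67 and 5.98 in the TAM arrays, against 0.02, 0.38, 0.19 and 0.13 in the M0 arrays (difference 5.74 ± 0.23, adjusted p = 6.28e-07). Fosb and Egr1 were higher by 5.45 ± 0.35 and 4.36 ± 0.34, and Dusp1, a phosphatase of MAP kinases, by 2.82 ± 0.28. Atf3 and Egr2 did not pass, at -0.32 ± 0.38 and 0.01 ± 0.40. Heat shock genes were higher for 6 of 10. Hspa1a, an inducible Hsp70 with a near-identical copy, measured 1.78, 0.86, 4.999 and 2.62 in the TAM arrays, against -3.42, -3.42, -3.45 and -3.42 in the M0 arrays (difference 5.99 ± 0.75, adjusted p = 3.49e-04), highest in TAM replicate 3. TAM were isolated from tissue on a gradient whereas M0 were cultured, and the part of handling in these differences was not tested.

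Several genes with the largest differences belong to none of the lists. Ptgds, prostaglandin D synthase, measured 8.02, 8.07, 7.77 and 7.58 in the TAM arrays, against -1.90, -3.40, -1.23 and -3.31 in the M0 arrays (difference 10.32 ± 0.49, adjusted p = 1.59e-06). Serpinh1, a chaperone of collagen, measured 6.18, 6.15, 6.34 and 5.93 in the TAM arrays, against -2.87, -3.85, -3.38 and -4.75 in the M0 arrays (difference 9.86 ± 0.39, adjusted p = 5.79e-07). Aebp1 and Sparcl1, matrix proteins, were higher by 10.12 ± 0.25 and 9.99 ± 0.81. Bace2, the protease that processes Pmel, was at least 1506-fold higher, and Gm10639 and Gm3776 were at least 1743-fold and at least 1555-fold higher.

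On the other side, Pcp4l1, a small calmodulin-binding type protein, measured -3.27, -3.47, -3.13 and -3.78 in the TAM arrays, against 3.84, 4.40, 3.65 and 3.93 in the M0 arrays (difference -7.37 ± 0.26, adjusted p = 3.54e-07). Lyl1, a haematopoietic helix-loop-helix factor, measured -0.53, -0.999, -1.27 and -0.59 in the TAM arrays, against 5.47, 5.96, 5.34 and 5.70 in the M0 arrays (difference -6.46 ± 0.27, adjusted p = 7.97e-07). Parvg, an adaptor of integrins in blood cells, Cdk18, a kinase, and Tmem273 were lower, at -6.31 ± 0.32, -6.27 ± 0.33 and -6.93 ± 0.38. Pira2, of a receptor family with close copies, was lower, at -6.26 ± 0.40. Afp, alpha-fetoprotein, measured -6.29, -5.97, -6.47 and -5.57 in the TAM arrays, against 1.49, 2.19, 1.68 and 2.10 in the M0 arrays, above background on every M0 array and on no TAM array (at least 85.5-fold lower). Cd200r4, Klk1b11, Tmem154 and Radx were likewise at background in TAM, at least 85.6-fold, at least 79.3-fold, at least 33.5-fold and at least 20.9-fold lower. Cd200r4 and Klk1b11 belong to families with close copies.

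The post-sepsis difference was last set against the same difference in naive mice, in one fit over 23 arrays. TAM naive replicate 2, which the submitters themselves marked as excluded, was left out. Of 17633 genes, 1490 (8.45%) differed between the contrasts at an adjusted p of 0.05, 958 (5.43%) with a higher and 532 (3.02%) with a lower TAM minus M0 difference after sepsis, and 5305 at an unadjusted p below 0.05. That count was unstable: it was 3371 without TAM post-sepsis replicate 2, 752 without TAM naive replicate 1, and 439 when only the 15 arrays of the 4 groups were fitted. Shifts of lists and of single genes below come from the fit over 23 arrays and were not recomputed in these other fits.

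Among the markers of other cells that were higher in TAM, none of the stroma or erythroid genes differed between the contrasts, 2 of 14 pigment cell genes had a higher one after sepsis, and the naive medians were 7.96, 10.50 and 8.46. Of the macrophage identity genes 5 of 18 had a less negative difference after sepsis, where the naive median was -5.45. Lower differences after sepsis were called for 4 of 9 mast cell and basophil genes, 3 of 10 dendritic cell genes and 1 of 12 endothelial genes.

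Interferon response genes held the largest share of members with a called shift. Of 27, 21 had a higher difference after sepsis and none a lower one, with a median shift of 2.04 from a naive median of -2.997. Their promoters hold the interferon-stimulated response element (GAAA, any 2 bases, GAAA) on either strand in 9 of 19 cases (47.4%), against 3.46% of all genes. It was also held by 3 of 8 Fc receptor and oxidase genes (37.5%), 2 of 12 macrophage identity genes (16.7%) and 2 of 13 class I genes (15.4%). This was another of the 12 motifs counted, so the match is a description. The promoter of Ifit3 is shown as the member of the list with the smallest p for that shift (RefSeq, GRCm38.p6, 5′ to 3′, matches on the opposite strand in capitals).
Ifit3 (chr19:34583279-34583528, strand +): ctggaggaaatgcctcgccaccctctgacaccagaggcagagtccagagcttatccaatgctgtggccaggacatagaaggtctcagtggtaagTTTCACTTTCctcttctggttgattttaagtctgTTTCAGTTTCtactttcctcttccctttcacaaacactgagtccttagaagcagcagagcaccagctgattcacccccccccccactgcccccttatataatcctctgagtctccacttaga

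Ifit3, an antiviral effector, averaged 0.15 in post-sepsis TAM and 0.03 in post-sepsis M0, against -0.53 in naive TAM and 3.71 in naive M0, so the post-sepsis groups were level and naive M0 stood apart (shift 4.36 ± 0.37, adjusted p = 1.02e-06). Ccl5 averaged 2.73 in post-sepsis TAM and -0.36 in post-sepsis M0, against 3.91 in naive TAM and 7.04 in naive M0 (shift 6.22 ± 0.38, adjusted p = 1.63e-08). Tmem176b averaged 5.76 in post-sepsis TAM and 2.73 in post-sepsis M0, against 5.35 in naive TAM and 5.54 in naive M0 (shift 3.23 ± 0.30, adjusted p = 2.49e-06). In each of these 3 genes the M0 groups lay further apart than the TAM groups. Zmynd15 and Adam22 shifted the same way, by 3.72 ± 0.31, adjusted p = 8.44e-07, and by 3.77 ± 0.35, adjusted p = 2.49e-06.

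In the 5 genes with the smallest p for a lower difference after sepsis, the M0 means again lay further apart than the TAM means. Mgarp averaged 3.23 in post-sepsis TAM and -0.76 in post-sepsis M0, against 3.31 in naive TAM and -6.50 in naive M0 (shift -5.81 ± 0.40, adjusted p = 9.80e-08). Scd2, a fatty acid desaturase, averaged 6.84 in post-sepsis TAM and 7.02 in post-sepsis M0, against 6.14 in naive TAM and 1.96 in naive M0 (shift -4.36 ± 0.32, adjusted p = 1.48e-07). The mitochondrial kinase Ak4 shifted by -4.69 ± 0.34, adjusted p = 1.48e-07, and Slc6a9, a glycine transporter, and Lmo1, a LIM protein, by -3.49 ± 0.33 and -4.04 ± 0.38. By list, lower differences after sepsis were called for 13 of 29 hypoxia genes, 9 of 13 fatty acid genes, 13 of 27 cell cycle genes, 12 of 22 cholesterol genes, 10 of 18 ATF4 targets, 9 of 21 T and NK cell genes and 7 of 10 class II genes. H2-Ab1 averaged 5.09 in post-sepsis TAM and 4.87 in post-sepsis M0, against 6.76 in naive TAM and 4.23 in naive M0 (shift -2.32 ± 0.47, adjusted p = 0.0054), and here the TAM means lay further apart than the M0 means.

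**Figure D4:**
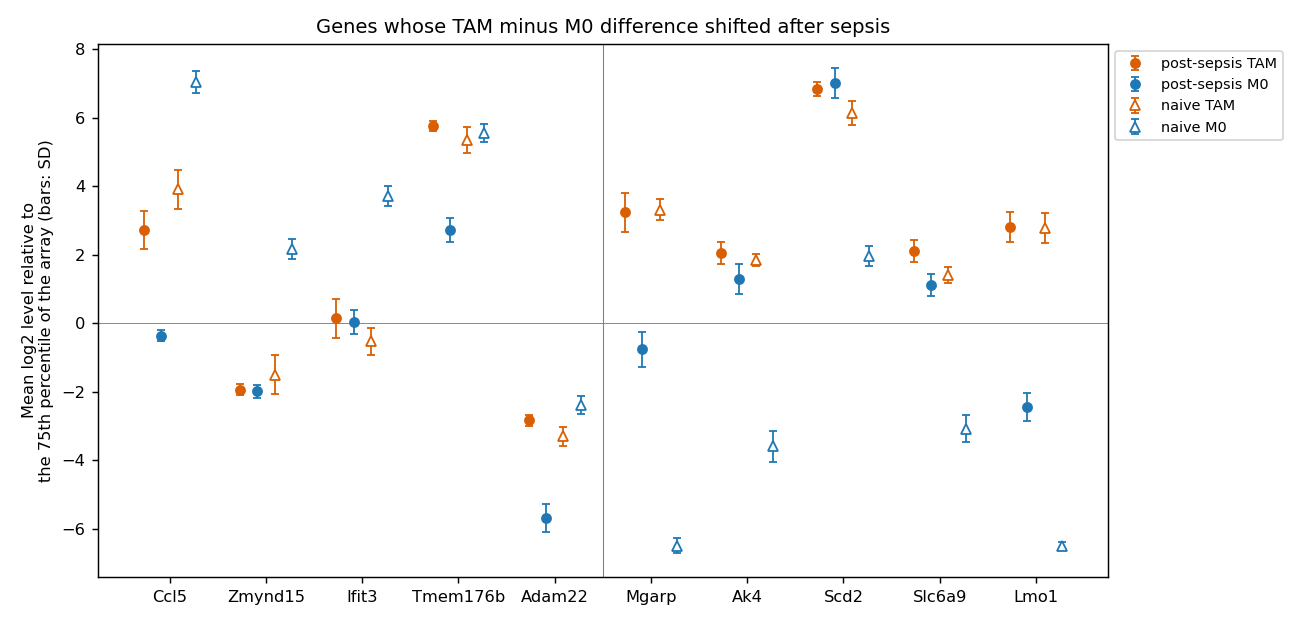
Mean log2 level (relative to the array's 75th percentile) with SD in post-sepsis TAM (n = 4), post-sepsis M0 (n = 4), naive TAM (n = 3) and naive M0 (n = 4). Shown are the 5 genes in each direction with the smallest p for the shift between contrasts. The left 5 genes had a higher and the right 5 a lower TAM minus M0 difference after sepsis, and in all 10 the M0 means of the conditions lay further apart than the TAM means.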

How the data were processed

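RNA was measured on Agilent one-colour arrays. Per the file headers, the deposited values were spot intensity values, background-subtracted within each array by Feature Extraction 10.7.3.1, whereas the submitters' processing notes gave version 12.5. Spots flagged as outliers were left out, and spots of a probe were averaged and put on a log2 scale, with each array's 75th percentile set to 0. Probes flagged above background on 3 or more arrays of either group were tested, 36006 in all. Names came from RefSeq (GRCm38.p6), with 27656 of 55681 probes matched by accession, 3401 by symbol and 321 by synonym. A gene was given by its brightest probe. The deposited value table was not used here.

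Groups were compared with limma 3.58.1 in R 4.3.3 (empirical Bayes, two-sided, Benjamini-Hochberg over all probes kept, adjusted p of 0.05), checked on simulated data. The main comparison was fitted on its 8 arrays and the shift between contrasts on 23. Where a group was above background on no array, "at least" gives a bound: the mean of the brighter group against the mean of, per array, the higher of the lowest signal well above background and the probe's own. Alternatives were background correction, scaling, filters, probe choice, slide and replicate blocks, array weights and left-out arrays. The fit without TAM post-sepsis replicate 2 and M0 post-sepsis replicate 3 together was chosen after seeing the data.

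The groups and gene lists were chosen with earlier results of these data known. Named were the 10 largest differences each way among genes measured in both groups, the 5 largest bounds each way, up to 4 members per list and direction with the smallest p, 20 key genes, and the 5 smallest p each way for the shift. Some genes that fit these rules are not reported here. Named after their values were seen were Alas2, Atf3, Axl, B2m, Cd14, Cd3d, Cd3e, Cd74, Egr2, H2-D1, H2-K1, Kdr, Mc1r, Mertk, Mki67, Nr1h3, Pax3, Pecam1, Slc4a1, Sox10, Tlr9, Trpm1, Tyr and Vwf.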

Additional observations from a re-analysis of the deposited data

Results flagged for a closer look

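Within the groups of 4 arrays, 504 sets of values were examined for an array far from the others, for the genes named above and the means of the gene lists. The gap to the nearest array, as a share of the range, exceeded the 95% critical value of Dixon's test in 18 sets. Chance alone flags about 1 in 20 sets. The value after each name is that share. TAM post-sepsis replicate 1 stood apart on the low side for Klf4 (0.937). TAM post-sepsis replicate 1 stood apart on the high side for Mpo (0.87) and the mean of the oxidative phosphorylation list (0.842). TAM post-sepsis replicate 2 stood apart on the low side for Chil3 (0.834), Clec10a (0.925), Gas6 (0.901), Igf1 (0.855), Oasl1 (0.874) and Tyr (0.872). TAM post-sepsis replicate 3 stood apart on the low side for Cxcr4 (0.903). TAM post-sepsis replicate 3 stood apart on the high side for Nrp2 (0.962), Sparcl1 (0.85) and the mean of the heat shock list (0.834). TAM post-sepsis replicate 4 stood apart on the high side for the mean of the dendritic cell list (0.936). M0 post-sepsis replicate 1 stood apart on the high side for the mean of the B cell list (0.837). M0 post-sepsis replicate 2 stood apart on the high side for Sdf2l1 (0.845) and Stab1 (0.846). M0 post-sepsis replicate 4 stood apart on the high side for Ptgs2 (0.862).

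Of the genes named, 54 had a TAM minus M0 difference that itself differed between post-sepsis and naive mice in the limma fit over 23 arrays (adjusted p under 0.05). The value after each name is the post-sepsis minus the naive difference in log2 units. Higher after sepsis were Adam22 (3.77), Adgre1 (1.80), Apoe (1.25), Atf3 (1.67), Axl (3.69), B2m (1.22), C1qc (2.11), Ccl5 (6.22), Ccl8 (4.24) and Chil3 (1.96). The same direction was found for Cxcl10 (2.55), Dusp1 (2.27), Id3 (3.72), Ifit1 (3.07), Ifit3 (4.36), Igf1 (1.83), Mertk (2.15), Mitf (1.62), Mmp14 (3.78) and Ms4a7 (3.07). To these were added Nr1h3 (2.51), Oas1a (1.46), Oasl1 (3.70), Pparg (1.12), Retnla (5.96), Thbs1 (3.60), Tmem176a (3.57), Tmem176b (3.23) and Zmynd15 (3.72). Lower after sepsis were Afp (-1.54), Ak4 (-4.69), Bank1 (-4.82), Ccl12 (-2.87), Ccl2 (-3.90), Ccr7 (-2.36), Cd3d (-3.74), Cd40 (-1.66), Cd74 (-1.71) and H2-Ab1 (-2.32). Also lower were H2-DMb1 (-1.97), Irf4 (-2.17), Klk1b11 (-1.999), Lmo1 (-4.04), Mcm2 (-1.25), Me1 (-1.69), Mgarp (-5.81), Mki67 (-1.88), Mpo (-2.33) and Parvg (-2.17). To these were added Radx (-2.24), Sc5d (-1.36), Scd2 (-4.36), Slc6a9 (-3.49) and Tmem154 (-2.74).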

How the results depend on the processing

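Leaving out 1 array at a time gave 4315 to 5832 genes called, 2228 to 2885 higher and 2087 to 3062 lower. Fits that borrowed the spread of all 23 arrays called 8608 genes, 4711 lower, and fits with array weights called 8739, 4997 lower. Another scaling moved the median of all genes from -0.18 to -0.04 (quantile) or -0.07 (median of probes above background), and the share of calls that were higher was 55.5% and 56.8% in these, against 50.5% in the main setting. With slide as a fixed block, 4553 genes were called, 2364 higher and 2189 lower. With a replicate block, 3904 genes were called, 2133 higher and 1771 lower. Deviations of arrays with the same number correlated at -0.39, -0.31, -0.10 and -0.21, and none was positive. These deviations also carry differences between arrays and slides, so they cannot tell whether the numbers pair the samples. Itgam turned to -1.69 with the mean of its probes, and within slide 3 Ly6g turned to -0.24 and Plac8 to -0.17, against 3.02 and 2.10 over all 8 arrays. The cause was not tested.

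The shift between contrasts was the less stable result. Leaving out 1 array gave 752 to 3371 genes called, 354 to 1822 higher and 328 to 1594 lower. With TAM naive replicate 2 there were 635 (399 higher, 236 lower), with quantile scaling 2395 (1742 higher), and with only the 15 arrays of the 4 groups 439 (243 higher, 196 lower). With the replicate block it was 1375. The cause of these changes was not tested. Probes near background carry only bounds, and the number of arrays limits the precision.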

Other observations

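Probes without a gene symbol were called lower more often than higher: of 12948 tested, 731 were higher and 1324 lower in TAM than in M0, with a median difference of -0.54, and what they measure was not analysed here. The order of the TAM arrays differed between some lists. It was 1, 2, 4 and 3 from high to low for both the erythroid and the pigment cell list. For the stroma list it was 3, 4, 1 and 2, and for the macrophage identity list 1, 4, 3 and 2. The erythroid and pigment order held in 7.7% of the genes higher in TAM, 5.3% of those lower and 6.47% of all genes tested. The stroma order held in 9.39% of the genes lower in TAM, and the macrophage order in 6.27% of the genes higher and 7.47% of the genes lower in TAM. TAM replicate 2 was the lowest TAM array for 34.9% of the genes higher in TAM, 37.7% of those lower and 33.2% of all genes.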
